A study of Mus musculus with 912 samples.

Results

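Dentate gyrus (DG) nuclei were taken from mice that explored context A and, 4 h later, a different context C, and the nuclei that held FOS protein after context C were compared with those that did not. They were chosen by their labels: the second set of nuclei, the A>C exposure, the DG sort, and at least 4000 genes above 1 in the log2(TPM+1) table, where TPM is a relative abundance scaled for transcript length and library size. Of 96 such nuclei before the gene threshold, 94 passed it, and the whole series held 912 samples. Mice 11 and 12 gave 19 and 27 ARC+FOS- nuclei, and mice 13 and 14 gave 24 ARC+FOS+ nuclei each.

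All 4 were wild-type female C57BL6 mice labelled 8.7 weeks old, apart from a single nucleus of mouse 14 labelled 9.0 weeks. Each mouse spent 15 min in context A, a rectangular cage with huts and tunnels, and returned to the home cage for 4 h. It then spent 15 min in context C, a square enclosure with other bedding and objects, and was killed after 1 h in the home cage. Nuclei were sorted as PROX1+CTIP2+, the protein pair of granule neurons, and ARC+, and were split by FOS, with no NEUN stain in this set, and RNA of each single nucleus was sequenced by SmartSeq2. The FOS- mice carried a different batch code in their nucleus names from the FOS+ mice, so gate, mouse and batch code cannot be told apart. Comparison groups were A>A mice, which met context A on both occasions, home cage mice, and mice killed 4 h or 5 h after a single exposure. A single mouse, labelled 8.7 weeks old, was killed 1 h after a single exposure and gave 26 FOS+ and 27 FOS- nuclei. The paper describes its mice as wild-type female C57BL6 and each exposure as 15 min long. Labelled ages of the home cage mice were not all the same, and the fits had no term for age.

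Fos and Arc are immediate early genes: neuronal firing switches them on within minutes, without new protein being made, and FOS pairs with JUN proteins to form the transcription factor AP-1. FOS protein is short-lived while ARC protein can persist for hours, so an ARC+FOS- nucleus at this time point is labelled as active in the first context and not in the second, and an ARC+FOS+ nucleus as active in the second. The FOS+ gate does not separate neurons active in context C alone from those active in both. Granule neurons of the DG fire sparsely, and distinct places tend to recruit distinct sets of them.

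Sequencing was deeper in the FOS- mice. The median nucleus held 1017059 and 1137859 expected counts in mice 11 and 12, and 716336.5 and 772966.5 in mice 13 and 14. The median number of genes above 1 was 5567 and 5636 in FOS- and 5181 and 4991.5 in FOS+ nuclei. No pair among the 94 nuclei had identical values, and the highest correlation of a pair was 0.628. Because of the depth gap, values were also computed on nuclei thinned to 100000 counts each.

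The sorted proteins' own genes checked the labels. Fos, which encodes the sorted protein, had a mean log2(TPM+1) of 0.94 and 0.57 in mice 11 and 12 and of 2.94 and 2.56 in mice 13 and 14. It was above 1 in 2 of 19, 2 of 27, 9 of 24 and 9 of 24 nuclei, so most nuclei of either gate held little Fos RNA, and the gates' means did not overlap. Arc, an effector that shapes synapses by internalizing AMPA receptors, averaged 7.53 and 5.14 in FOS- and 9.53 and 9.81 in FOS+ nuclei. In mouse 12, 16 of 27 nuclei of the ARC+ gate had Arc RNA above 1, against 18 of 19 in mouse 11. Prox1, the granule neuron identity factor whose protein was sorted, averaged 6.89, 5.24, 6.72 and 6.00 in mice 11 to 14, with overlap between the gates.

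Counts were summed over the nuclei of a mouse, and edgeR's quasi-likelihood test on 26 such DG sums called 0 of 24408 genes between FOS+ and FOS- after A>C at a Benjamini-Hochberg adjusted p of 0.05 (0.0% of genes; lowest adjusted p 0.131). At an unadjusted p of 0.05 the same test passed 1088 genes, 355 higher in FOS+ (1.45%) and 733 lower (3.0%). DESeq2 on the same sums called 319 genes higher (1.31%) and 804 lower (3.29%). Limma on each mouse's mean log2(TPM+1) called 107 of 22997 genes, 56 higher (0.244%) and 51 lower (0.222%). The number of genes called thus ran from 0 to 1123 with the test. Of limma's 107 genes, all had the same sign in edgeR, 52 had an unadjusted edgeR p of 0.05 or less, 30 were called by DESeq2, and 72 were called again by limma after thinning.

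The calls by limma moved with single mice. They numbered 259 without mouse 11, 264 without mouse 12, 148 without mouse 13 and 170 without mouse 14, and 0 when the A>C mice were fitted alone. Among the 107 genes, 42 had a mean under 1 in both gates, and the other 65 (35 higher, 30 lower) are the ones described here. Of these 65, 18 genes (14 higher, 4 lower) were called with any of the 4 mice left out, and none changed sign. An exact two-sided permutation test of 2 mice against 2 cannot give a p under 0.333. Single genes thus rest on the fit across all genes and on a spread taken mostly from the other DG groups. Whether the mice overlapped is given as a description; over all genes, 2690 were higher in both FOS+ mice than in both FOS- mice (11.7%) and 5749 were lower (25.0%), or 10.2% and 21.3% after thinning.

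Genes that limma called higher in FOS+ nuclei were chosen after their values were seen, by the rule set for edgeR calls applied to limma's. First among them was Kdm6b (chr11:69398508-69413675, minus strand), which encodes a demethylase that removes the repressive mark on lysine 27 of histone H3. Its mean log2(TPM+1) was 1.90 and 1.76 in the FOS- mice and 6.58 and 6.83 in the FOS+ mice. Each of the 48 FOS+ nuclei had it above 1, against 10 of 19 and 16 of 27 FOS- nuclei. The difference was 4.88 ± 0.46 (SE; limma adjusted p = 4.48e-06), and it was called by DESeq2 (adjusted p = 3.15e-05) and not by edgeR (adjusted p = 0.55).

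Regulators of transcription were part of this group. Etv3, an ETS-family repressor, averaged 1.77 and 1.63 in FOS- and 6.72 and 8.08 in FOS+ mice (difference 5.70 ± 0.84, limma adjusted p = 0.00144). Myc, a growth-linked transcription factor, was near 0 in FOS- mice (0 and 0.24) and averaged 2.49 and 2.02 in FOS+ mice. It was above 1 in 8 and 7 of 24 FOS+ nuclei, and any count was found in 9 and 8. Cenpa, which encodes the histone H3 variant of centromeres, went from 0 and 0.44 to 7.54 and 6.20 (difference 6.65 ± 0.89, limma adjusted p = 0.000514), and 21 and 18 of 24 FOS+ nuclei held it against 0 of 19 and 2 of 27 FOS- nuclei.

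Other called genes serve the cytoskeleton and metabolism. Ndel1, a partner of the dynein motor, averaged 1.78 and 1.92 in FOS- and 6.39 and 7.26 in FOS+ mice. Dpysl5, a microtubule-linked collapsin response mediator, averaged 1.73 and 1.58 against 5.76 and 6.37. Flna, which crosslinks actin, averaged 0.81 and 0 against 4.87 and 3.95. In each of these genes the gates did not overlap, and limma's adjusted p was 0.000306, 0.00035 and 0.00213. Slc2a1, the glucose transporter GLUT1, averaged 1.19 and 1.09 against 5.83 and 4.93 (difference 4.24 ± 0.57, limma adjusted p = 0.000514). Fst, the activin-binding protein follistatin, averaged 0.10 and 0.91 against 2.78 and 2.69. The remaining genes of the rule were Nedd9, a docking scaffold of the Cas family (0.33, 0, 2.52 and 1.79), Rasl11a, a Ras-like protein (0.30, 0.35, 3.95 and 3.29), and the predicted gene Gm17214 (0.83, 0.90, 4.54 and 5.03).

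**Figure D1:**
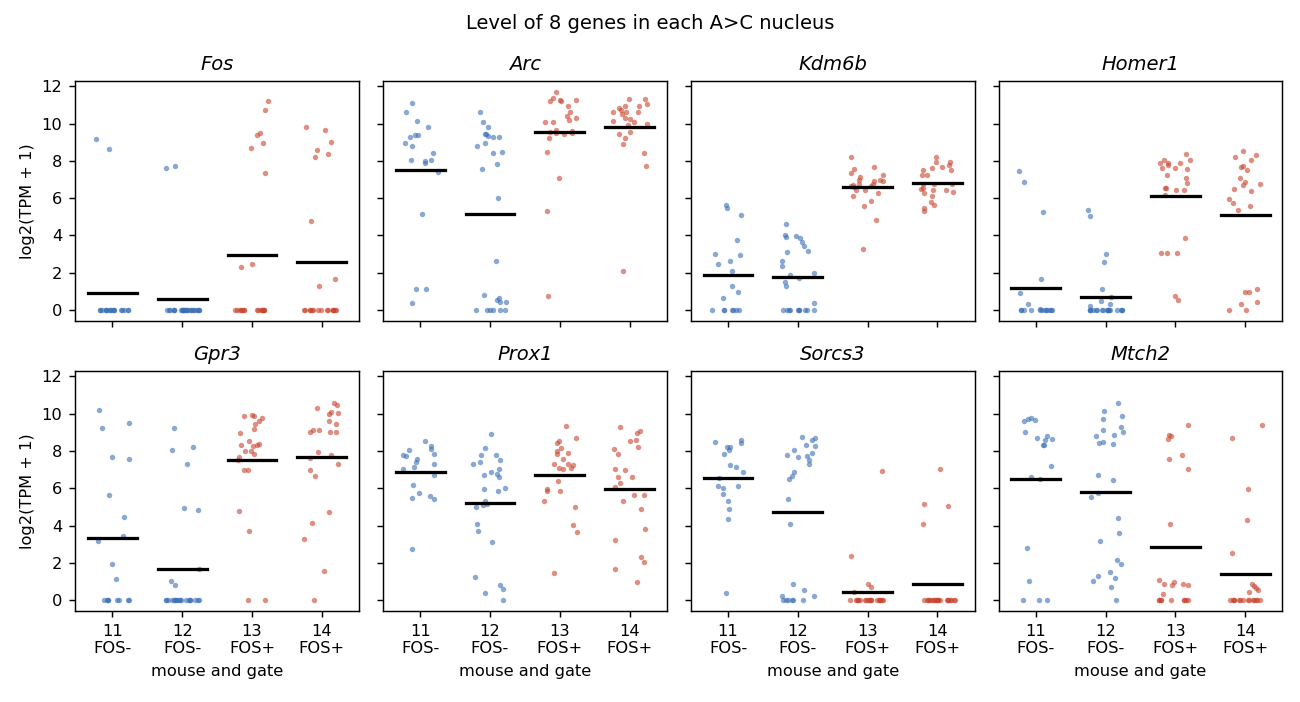
Each point is a nucleus, placed by mouse and gate on the x axis and by log2(TPM+1) on the y axis, with the mean of a mouse as a black bar. Kdm6b, Homer1 and Gpr3 had higher means in both FOS+ mice (red) than in either FOS- mouse (blue), Sorcs3 and Mtch2 lower ones, and Prox1 means overlapped.

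Genes that limma called lower in FOS+ nuclei included Sorcs3 (chr19:48206025-48805505, plus strand), a VPS10-domain sorting receptor of the postsynapse. It averaged 6.56 and 4.75 in the FOS- mice and 0.47 and 0.89 in the FOS+ mice. It was above 1 in 18 of 19 and 17 of 27 FOS- nuclei but in 2 and 4 of 24 FOS+ nuclei. The difference was -4.97 ± 0.90 (limma adjusted p = 0.0102; edgeR adjusted p = 0.898). The call was lost in 2 of the 4 fits that left out a mouse.

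Several lower genes have housekeeping or transport roles. Mtch2, a protein of the outer mitochondrial membrane, averaged 6.49 and 5.79 in FOS- and 2.83 and 1.43 in FOS+ mice (difference -4.01 ± 0.68, limma adjusted p = 0.00627). Tia1, an RNA-binding protein of stress granules, averaged 7.29 and 6.68 against 3.51 and 4.30. Bicd1, an adaptor of dynein, averaged 2.95 and 4.07 against 0.31 and 0.28. In the home cage mice, Mtch2 averaged between 6.06 and 7.08, Tia1 between 8.24 and 8.52 and Bicd1 between 1.54 and 3.17. Tia1 was thus below the home cage range in both gates. In the mouse killed 1 h after a single exposure, Mtch2 averaged 2.32 in FOS+ and 6.50 in FOS- nuclei, and Tia1 4.58 and 8.36, which is the same order as after A>C. The other lower genes of the rule were Asphd2, Ascc2, Zdhhc24, Tsnax, Dram2, Asb3, Arxes2 and Mfap4, and their A>C differences ran from -2.29 for Mfap4 to -4.15 for Arxes2. Among the lower genes of the rule, only Bicd1, Asphd2, Tsnax and Dram2 kept their call in each fit that left out a mouse.

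Immediate early transcription factors stood higher in FOS+ mice, but limma called none of them. The list held 24 genes; 19 did not overlap between the gates, all higher in FOS+ (79.2%, against 11.7% of all genes), and the median difference was 0.82 against -0.04 over all genes (edgeR 1.99 on summed counts). DESeq2 called 1 of the 24, higher in FOS+ (against 1.31% of all genes). Nr4a2, an orphan nuclear receptor, averaged 1.65 and 1.20 in FOS- and 6.45 and 3.23 in FOS+ mice (limma adjusted p = 0.272). Junb, an AP-1 partner, averaged 2.05 and 3.10 against 5.97 and 5.25, and Atf3, a stress-linked member of the same bZIP class, 0.98 and 0.65 against 3.80 and 3.16. Fosb, the FOS paralog, averaged 0 and 0.06 against 2.83 and 1.57 (limma adjusted p = 0.153). Egr1 and Npas4, both activity-induced factors, were low even in FOS+ mice: Egr1 averaged 0.83, 1.07, 2.86 and 1.45 in mice 11 to 14, and Npas4 0.23, 0, 0.88 and 0.89. The Egr1 difference changed sign in edgeR without mouse 13.

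On the log2(TPM+1) scale, effector genes held a larger median difference than the immediate early factors, and on summed counts a smaller one. Of 22 activity-induced effectors, limma called 5 higher and none lower (against 0.244% and 0.222% of all genes), but only 2 higher after thinning. Of the 22, 17 did not overlap with FOS+ higher (77.3%, against 11.7% of all genes). With FOS+ lower, 2 did not overlap (9.09%, against 25.0%), and the median difference was 2.24 (edgeR 1.64 on summed counts, against 1.99 for the factors). Gpr3, a receptor that raises cyclic AMP without a ligand, averaged 3.37 and 1.71 in FOS- and 7.50 and 7.67 in FOS+ mice (difference 5.05 ± 0.85, limma adjusted p = 0.00604). Homer1, a postsynaptic scaffold whose short form is induced by firing, averaged 1.19 and 0.70 against 6.10 and 5.12 (difference 4.67 ± 0.87, limma adjusted p = 0.0125), though the table does not separate its forms. Pim1, a survival kinase (0.92, 1.08, 3.58 and 3.52), Pcsk1, a prohormone convertase (0.96, 0.61, 3.19 and 3.65), and Fbxo33, a ubiquitin ligase subunit (1.61, 1.39, 4.89 and 4.69), were the other calls. None of these 5 effectors kept its call in each fit that left out a mouse, and Fbxo33 kept it in no such fit.

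Some well-known effectors were not called by limma. Bdnf, a neurotrophin, averaged 8.94 and 7.14 in FOS- and 9.14 and 9.06 in FOS+ mice, so it was high in both gates. Inhba, the activin subunit, averaged 8.52 and 6.25 against 10.04 and 10.35 (limma adjusted p = 0.200). Scg2, a secretogranin of dense-core vesicles, went the other way at 10.00 and 9.50 against 8.74 and 7.87, and Rgs4, a brake on G-protein signalling, at 5.43 and 4.72 against 3.60 and 3.67. In Inhba, Scg2 and Rgs4 the gates did not overlap.

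Among chromatin genes, limma called only Kdm6b, and DESeq2 called Kdm6b, Tet3, Gadd45a and Jmjd1c, all higher. Over all genes, limma called 0.244% higher and DESeq2 1.31%. Of 15 genes for chromatin and DNA demethylation, 9 did not overlap with FOS+ higher (60.0%, against 11.7% of all genes). With FOS+ lower, 1 did not overlap (6.67%, against 25.0%). The median difference was 0.87 (edgeR 1.86 on summed counts). Tet3, which oxidizes methylcytosine, averaged 5.67 and 5.04 in FOS- and 9.11 and 9.52 in FOS+ mice (difference 3.96 ± 0.99, limma adjusted p = 0.091). Gadd45b and Gadd45g, stress-linked genes tied to active demethylation, averaged 4.24 and 3.12 against 8.21 and 7.82, and 4.42 and 2.24 against 7.41 and 7.77. The DNA methyltransferase Dnmt3a was level at 5.58, 4.90, 5.38 and 5.25. Of 13 phosphatase and feedback genes, 6 did not overlap with FOS+ higher (46.2%, against 11.7% of all genes). With FOS+ lower, 1 did not overlap (7.69%, against 25.0%). Limma called none of the 13, and DESeq2 called 2, both higher (against 1.31% of all genes). Spry2, an inhibitor of growth factor signalling, averaged 6.60 and 5.51 against 8.35 and 8.89.

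Among genes past limma's test with FOS+ higher, 36 met the rule's level and 25 of those had a promoter in RefSeq (GRCm38.p6). The cyclic AMP response element TGACGTCA, which CREB binds and which reads the same on both strands, was searched in the 250 bases before to 50 bases after each start. It was found in 2 of the 25, against 588 of all 32851 promoters (1.79%). Those 2 are shown because they are the called genes that hold the element, with the match in capitals.

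Pcsk1, chr13:75089607-75089906, plus strand: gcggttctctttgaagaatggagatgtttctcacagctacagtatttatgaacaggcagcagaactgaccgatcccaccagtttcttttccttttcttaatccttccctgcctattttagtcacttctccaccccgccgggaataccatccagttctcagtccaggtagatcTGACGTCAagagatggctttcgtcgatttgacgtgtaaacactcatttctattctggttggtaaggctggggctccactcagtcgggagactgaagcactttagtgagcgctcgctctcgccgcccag

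Hhip, chr8:80057959-80058258, minus strand: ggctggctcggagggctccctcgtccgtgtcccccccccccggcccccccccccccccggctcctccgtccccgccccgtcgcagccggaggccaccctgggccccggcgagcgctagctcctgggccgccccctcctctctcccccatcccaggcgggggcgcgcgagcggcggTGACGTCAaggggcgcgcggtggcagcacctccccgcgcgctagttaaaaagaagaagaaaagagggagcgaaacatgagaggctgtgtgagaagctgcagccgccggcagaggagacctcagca

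The match starts 78 bases before the annotated start in Pcsk1 and 75 bases before it in Hhip. Hhip, which binds hedgehog ligands, was at 0 in every FOS- nucleus and averaged 1.59 and 1.04 in the FOS+ mice. There, 7 and 4 of 24 nuclei had it above 1. Hhip was called (limma adjusted p = 0.0304), but not in each fit that left out a mouse. By list, the element was present in 6.59% of 182 early promoters, 13.4% of 82 sustained promoters and 3.19% of 94 late promoters, the lists described next, and in 3.14% of the 13373 promoters matched to a tested gene. The AP-1 element TGACTCA, searched on both strands, was present in 4.40% of early and 7.45% of late promoters against 5.20% of all. These are letter matches and no measure of binding.

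The study had sorted genes into time classes from home cage, 1 h, 4 h and 5 h nuclei, none of them from A>C mice. Early genes had differed from the home cage at 1 h only, late genes at 4 h and 5 h, and sustained genes at all of these times. Of 252 early genes, limma called 20 higher and none lower, against 0.244% and 0.222% of all genes. Of the 252, 185 did not overlap with FOS+ higher (73.4%, against 11.7% of all genes) and 6 with FOS+ lower (2.38%, against 25.0%). The median difference was 1.35, with a range of 1.19 to 1.51 over the 4 pairings of a FOS+ with a FOS- mouse. Among the called early genes not yet named, Skil, a repressor of SMAD signalling, averaged 1.50 and 2.54 in FOS- and 6.46 and 5.84 in FOS+ mice, and Sertad1, a cofactor of E2F, 0.44 and 0.04 against 4.51 and 3.94. Neither Skil nor Sertad1 kept its call in each fit that left out a mouse. Of 107 sustained genes, limma called only Gpr3, higher in FOS+ (against 0.244% of all genes). Of the 107, 65 did not overlap with FOS+ higher (60.7%, against 11.7% of all genes) and 8 with FOS+ lower (7.48%, against 25.0%). The median difference was 0.85.

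Late genes ran the opposite way. Of 129 late genes, limma called 4 lower (against 0.222% of all genes) and none higher. Of the 129, 84 did not overlap with FOS+ lower (65.1%, against 25.0% of all genes) and 8 with FOS+ higher (6.2%, against 11.7%). The median difference was -1.24, with a range of -1.54 to -0.95 over the pairings. In edgeR on summed counts it was -0.44, and the cause of this gap was not tested. Fam19a1, which encodes a secreted chemokine-like protein, averaged 9.77 and 9.61 in FOS- and 3.87 and 4.35 in FOS+ mice (difference -5.58 ± 1.15, limma adjusted p = 0.0296). Acvr1c, an activin-class receptor kinase, averaged 6.33 and 4.58 against 1.42 and 1.34, and Smpd1, the lysosomal acid sphingomyelinase, 4.38 and 4.10 against 0.55 and 1.27. Sorcs3 was the other call. The 4 late calls fell to 0 without mouse 11 or mouse 13, to 2 without mouse 12 and to 1 without mouse 14.

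A list of 18 genes that the study names, as late genes or as predictors of reactivation, was also counted. Limma called 1 of them, Sorcs3, lower (against 0.222% of all genes). Of the 18, 10 did not overlap with FOS+ lower (55.6%, against 25.0% of all genes) and 3 with FOS+ higher (16.7%, against 11.7%). The median difference was -1.02 (edgeR -0.37 on summed counts). Pxdn, a peroxidase of the extracellular matrix, averaged 5.76 and 5.06 against 1.15 and 1.57 (limma adjusted p = 0.112). Slitrk1, a synaptic adhesion protein that shapes neurites, averaged 4.53 and 4.54 against 1.95 and 1.87. Blnk, a signalling linker best known from B cells, averaged 5.91 and 3.77 against 1.53 and 2.03, and Dgat2l6, of the acyltransferase family, 4.82 and 3.54 against 0.87 and 1.24. Acan, a proteoglycan of perineuronal nets, went the other way at 1.92 and 0.65 against 2.78 and 3.00, as did Tnik, a postsynaptic kinase, at 6.99 and 6.61 against 8.83 and 8.35. Entpd4, a Golgi nucleotidase (3.46, 3.67, 3.41 and 3.68), and Hes7, a bHLH repressor (3.38, 3.21, 3.15 and 3.90), overlapped between the gates, and their sign changed with the processing.

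**Figure D2:**
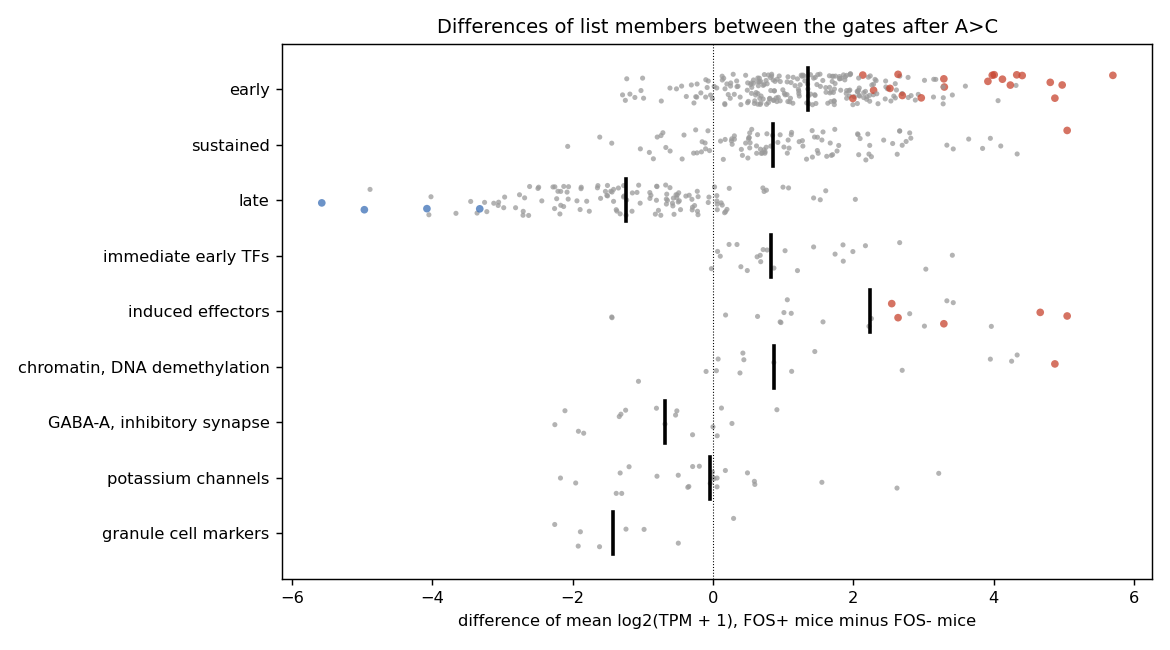
Each point is a gene, placed by its FOS+ minus FOS- difference in mean log2(TPM+1) after A>C, with red and blue for genes called higher and lower by limma and a black bar at the list's median. Early and sustained members centre to the right of 0 (medians 1.35 and 0.85) and late members to the left (median -1.24).

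The lists were also scored in each nucleus, as the mean log2(CPM+1) of the members after thinning, with CPM as counts scaled to library size. The early level had a median of 2.58 and 2.40 in mice 11 and 12 and of 4.22 and 3.79 in mice 13 and 14. The 1 h FOS+ nuclei had 4.61, and the home cage mice with more than 1 nucleus 2.18 and 2.28. The FOS+ medians of A>C thus lay between the home cage and 1 h FOS+ medians on this list, but single nuclei overlapped. The 1 h FOS+ nuclei ran from 3.95 to 5.89, and those of mice 13 and 14 reached 5.63 and 4.68. All 48 FOS+ nuclei of A>C were above the FOS- median. Of these, 42 of 48 were above every FOS- nucleus (23 of 24 in mouse 13, 19 of 24 in mouse 14).

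On the late list the gates changed places. The late level had a median of 5.53 and 5.20 in mice 11 and 12 and of 3.74 and 3.71 in mice 13 and 14. The 4 h mice had 5.75 and 5.10, the 5 h mice ran from 3.50 to 5.54, and the home cage mice had 2.71 and 3.13. The FOS- medians of A>C were therefore within the range of the 4 h and 5 h medians. The FOS+ medians lay between home cage and 4 h, and above the 3.005 of the 1 h FOS+ nuclei. They were also within the 5 h range, between the 5 h mice with 3.50 and 3.97. Of the 48 FOS+ nuclei, 0 were above the FOS- median on the late list, and all 48 were above the lowest FOS- nucleus. The sustained level was high in both gates, at 6.03 and 5.91 against 7.14 and 6.75.

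FOS- nuclei were not alike within mouse 12. Its late level ran from 2.60 to 6.44, and 7 of its 27 nuclei were below the FOS+ median, against 0 of 19 in mouse 11. Within mouse 12, the late level correlated with Arc RNA across nuclei (r = 0.708, n = 27) and with the early level (r = -0.617), and also with the total count of a nucleus (r = -0.733), while in mouse 11 its correlation with Arc was 0.148 (n = 19). The nuclei of a mouse share a preparation and vary in depth, and the part of depth in this spread was not tested.

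**Figure D3:**
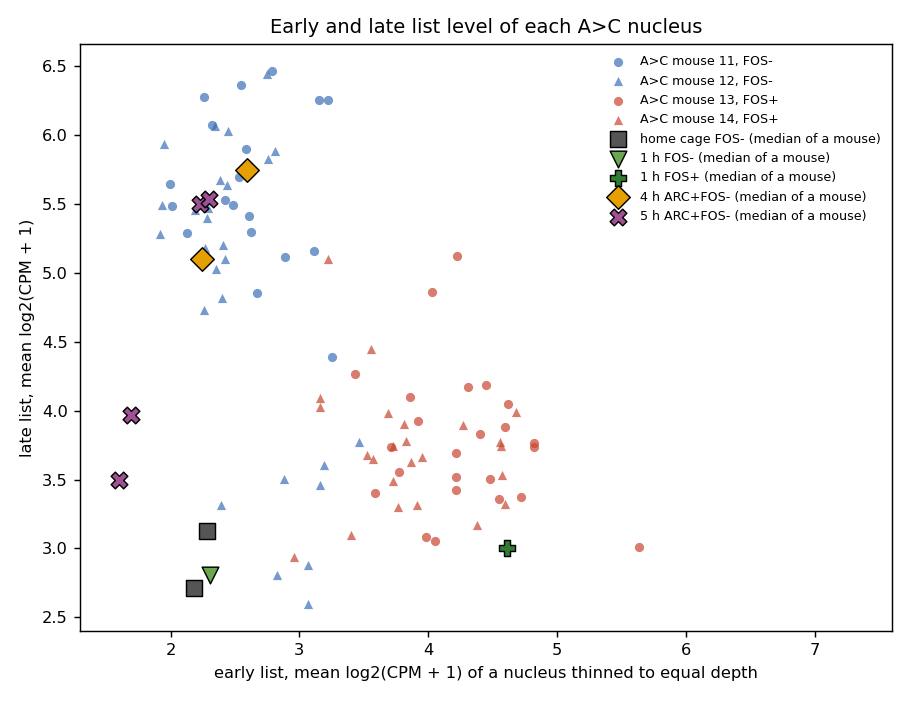
Each small point is an A>C nucleus, placed by its level of the early list (x axis) and the late list (y axis), both as mean log2(CPM+1) after thinning, and large symbols are medians of comparison mice with at least 2 nuclei. FOS+ nuclei (red) sit at a high early and a low late level, most FOS- nuclei (blue) beside the 4 h mice, and 7 nuclei of mouse 12 below the FOS+ median of the late list.

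Inhibitory synapse genes held no call by limma, edgeR or DESeq2. Of 17 genes for GABA-A receptors and the inhibitory synapse, 9 did not overlap with FOS+ lower (52.9%, against 25.0% of all genes) and 1 with FOS+ higher, and the median difference was -0.68, but the edgeR median on summed counts was 0. Gabrd, the delta subunit of extrasynaptic receptors, overlapped between the gates, with means of 3.21, 2.47, 2.81 and 2.28 in mice 11 to 14. Of 25 potassium channel genes, 5 did not overlap with FOS+ higher (20%, against 11.7% of all genes) and 8 with FOS+ lower (32%, against 25.0%). Kcna1, a voltage-gated channel of axons, averaged 4.46 and 3.75 in FOS- and 7.52 and 7.13 in FOS+ mice (limma adjusted p = 0.106).

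Markers of granule neurons were also compared. Of 8 markers, 7 did not overlap with FOS+ lower (87.5%, against 25.0% of all genes) and limma called none. The median difference was -1.43 (edgeR -0.95 on summed counts). C1ql2, a secreted synapse organizer, averaged 5.02 and 4.23 in FOS- and 2.67 and 2.80 in FOS+ mice, and Glis3, a zinc finger factor, 4.46 and 3.22 against 1.96 and 1.21. The markers' summed level was 2190 and 2336 CPM in FOS- and 1728 and 1750 CPM in FOS+ mice, and Prox1 itself overlapped. The general neuron markers had a median difference of -0.01.

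Markers of other cells gave low sums. GABAergic markers summed to 186.7 and 186.3 CPM in FOS- and 422.3 and 388.2 CPM in FOS+ mice, mostly from Gad1, a GABA-synthesis gene that is also on the early list, while Slc32a1 and Vip were at 0 in all 4 mice. Of these 8 markers, 7 were tested and limma called none. CA pyramidal markers summed to between 43.5 and 57.9 CPM, oligodendrocyte markers to between 98.2 and 212.3 CPM, astrocyte markers to between 65.4 and 131.5 CPM, microglial markers to between 4.65 and 17.9 CPM, and endothelial markers to between 0.691 and 2.32 CPM. Of the 6 CA pyramidal markers, DESeq2 called 2 lower in FOS+ (against 3.29% of all genes), and limma and edgeR none. Their edgeR median was -3.41, at a mean log2(TPM+1) between 0.20 and 0.34 in the 4 mice. The part of the GABAergic, CA pyramidal and granule marker shifts in the results was not tested.

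The same gates after the same context (A>A) were compared next, with no mouse shared. There, edgeR called 9 genes (0.0369%) and limma 149 higher (0.648%) and 81 lower (0.352%) in FOS+ nuclei. The 4 A>A mice that gave both gates entered all fits as separate sums or means, with no term for the mouse. Their pairing was thus ignored here and in the test between exposures. All 65 of the A>C genes described above had the same sign after A>A, and 40 were called there by limma; over the 8128 genes with a mean level of at least 1 the share with the same sign was 67.0%. In all, limma called 41 genes in both exposures, 38.3% of the A>C calls and 17.8% of the A>A calls. Kdm6b differed by 4.17 ± 0.26 after A>A and between 3.63 and 4.41 within the 4 mice that gave both gates, where batch code and mouse are matched. Homer1 ran from 0.93 to 4.81 within those mice, and Sorcs3 from -4.77 to -2.06.

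**Figure D4:**
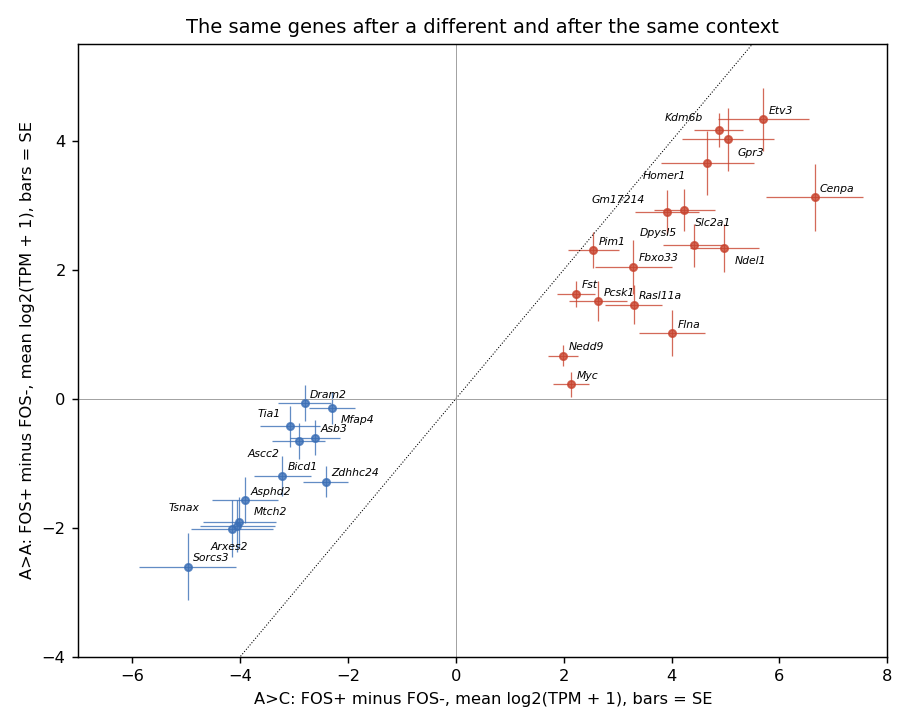
Each point is a gene named by the rule or called in a pathway list, placed by its FOS+ minus FOS- difference in mean log2(TPM+1) after A>C (x axis) and A>A (y axis), with limma's standard errors as bars and a dotted line of equal values. All points lie in the same direction on both axes; the genes were chosen on the x axis.

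The difference between the exposures was tested itself. EdgeR called 0 of 24408 genes (0.0%; lowest adjusted p 1, with 1069 genes at an unadjusted p of 0.05), DESeq2 767, and limma 14 (0.0609%), each of them with a mean of at most 0.868 in either gate. Limma called none among genes with a mean level of at least 1. Some A>C genes had a smaller difference after A>A without a call for the change: Myc differed by 2.14 after A>C and 0.22 after A>A (limma adjusted p = 0.113 for the difference), Flna by 4.01 and 1.02 (adjusted p = 0.260), and Dram2 by -2.81 and -0.07 (adjusted p = 0.120). These genes were chosen on the A>C value.

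The lists gave the exposures side by side. Early genes had a median difference of 1.35 after A>C and 1.08 after A>A, and sustained genes 0.85 and 0.92. After A>A, limma called 60 early genes higher, against 0.648% of all genes. Late genes had a median difference of -1.24 after A>C and -0.49 after A>A, where limma called 8 lower (against 0.352% of all genes). Within the 4 matched A>A mice the late median was -1.15, -1.01, -0.41 and -0.22. Of those mice, the lowest medians were those of mice 24 and 25. Granule neuron markers had a median of -1.43 after A>C and -0.09 after A>A, and GABA-A and inhibitory synapse genes -0.68 and -0.18.

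FOS+ nuclei with a high late level were a larger share after A>A than after A>C. Of 130 FOS+ nuclei of 6 A>A mice, 44 were above the late median of the A>A FOS- nuclei (15.8% to 50% per mouse), against 0 of 48 above the median of their own FOS- nuclei after A>C. Measured against the A>A median for both exposures, the A>C count was 2 of 48. The mean share per mouse was 33.1% ± 15.5 (SD, n = 6) after A>A and 4.17% after A>C (n = 2), an exact two-sided permutation p of 0.0714, which is the smallest that 2 mice against 6 allow. With each exposure's own median, or on the log2(TPM+1) scale, the share of the A>C mice again lay below that of every A>A mouse. Such a separation fixes p at this smallest value, so its repeat adds no evidence. The order held for this share and not for the median late level of FOS+ nuclei. That median was 3.13 and 3.18 in A>A mice 24 and 25, below the 3.74 and 3.71 of A>C mice 13 and 14. In the other A>A mice it ran from 4.10 to 4.97.

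**Figure D5:**
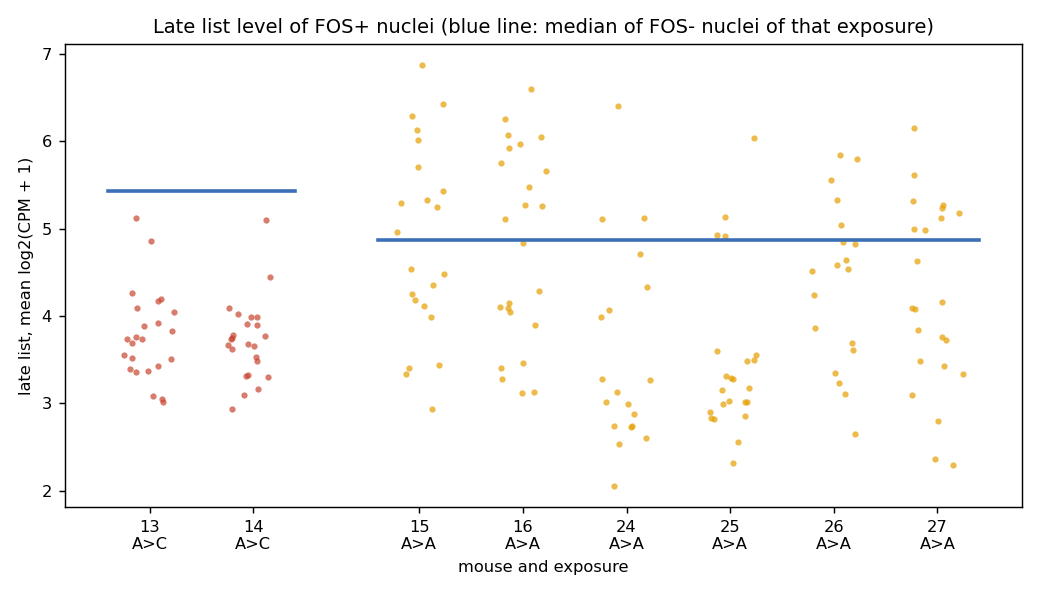
Each point is a FOS+ nucleus, placed by mouse and exposure (x axis) and by its late list level as mean log2(CPM+1) after thinning (y axis), with the median of the FOS- nuclei of that exposure as a blue line. No nucleus of A>C mice 13 and 14 reaches its line, while every A>A mouse has nuclei above the A>A line. The A>C line is higher than the A>A line (5.43 against 4.87).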

How the data were processed

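SmartSeq2 RNA-seq of single DG nuclei was compared between ARC+FOS+ and ARC+FOS- gates after A>C exposure. The authors trimmed reads with Solexa-QA++, aligned them to mm10 with Bowtie and quantified genes with RSEM on an Ensembl annotation whose release is not given in the sources used here. The deposited expected counts were whole numbers and needed no rounding. The deposited log2 values are log2(TPM+1) by the authors. Total counts of the DG nuclei kept ran from 142275 to 5885216. Genes without a value in some nucleus (30 in the count tables, 23 in the log2 tables) were left out.

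Nuclei with at least 4000 genes above 1 were kept (559 of 635 DG nuclei; each of the 559 also had 100000 aligned reads). Counts were summed per mouse and gate (26 sums of at least 2 nuclei) and tested with edgeR 4.0.16 (TMM, filterByExpr, quasi-likelihood, 1 group per exposure and gate, Benjamini-Hochberg over all genes), with DESeq2 1.42.0 and limma 3.58.1 (on mean log2(TPM+1), pseudocount 1 in the deposited values) in R 4.3.3 as alternatives. Differences are on the log2(TPM+1) scale, which understates changes of low genes. The fits were tested on simulated data. With mice as replicates, p-values measure the spread between mice, pooled over all DG groups (17 residual degrees of freedom in edgeR). Most of the 26 sums behind that spread were from groups other than A>C. They included the A>A mice that entered once per gate.

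Named genes were to be the 12 higher and 12 lower edgeR calls with the smallest p, no overlap between the gates and at least 20 CPM in the higher gate, the called genes of the pathway lists, 14 genes the study names, and up to 5 genes per direction whose difference differed between exposures. As edgeR called none, the same rule was applied to limma's calls after seeing the data. The members, lists and tests were chosen with earlier results of these data known. The study tested nuclei as replicates, which was not done here. Alternatives were other scalings, tests, filters, thresholds, sums and left-out mice; those of limma were chosen after seeing the data. Some genes of the lists are not reported here by name.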

Additional observations from a re-analysis of the deposited data

Results flagged for a closer look

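For 14 genes, limma's test found that the FOS+ minus FOS- difference after A>C was not the same as after A>A (adjusted p under 0.05 over 22997 genes). Each had a mean log2(TPM+1) of at most 0.868 in either gate and was above 1 in 2 to 7 of the 94 A>C nuclei, and edgeR called 0 of them. The A>C difference minus the A>A difference, in log2(TPM+1), was 0.61 for Nxph4, 0.564 for Gprc5a, 0.341 for Pold1, 0.304 for Dnah12, 0.356 for Rnu73b, 0.206 for Meiob, 0.344 for Gm15971, 0.28 for Gm25750 and 0.612 for Gm28991. It was -0.34 for 1700026J14Rik, -0.302 for Tspan8, -0.384 for Pir, -0.309 for Gm17334 and -0.178 for Gng8. No group of A>C mice was large enough to look for a single mouse far from the rest.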

How the results depend on the processing

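No paired analysis was possible because the A>C FOS+ and FOS- nuclei came from different mice. Settings with limma as the test, and the A>A fit with only the 4 mice that gave both gates, were chosen after seeing the data. DESeq2 gave 1123 A>C calls (319 higher, 804 lower), with 20 early genes higher, 7 sustained genes called and 11 late genes lower, and 767 calls for the difference between exposures. Limma gave 107 (56 and 51), 20, 1, 4 and 14. Fitting edgeR to only the A>C and A>A sums gave 3 calls (2 higher, 1 lower; 1 early gene), and a threshold of 3000 genes 3 (1 higher, 2 lower). The other edgeR settings gave 0 A>C calls, and leaving out a mouse 0 to 1 (0 higher, 0 to 1 lower), and 0 to 1 for the difference. The early median of 1.47 moved to 1.35 with limma, 1.39 after thinning, 1.34 at 5000 genes and 1.43 to 1.54 without a mouse, and the late median of -0.44 to -1.24 with limma, -0.61 after thinning, -0.70 at 5000 genes and -0.77 to -0.37 without a mouse.

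For A>A, edgeR's 9 calls became 874 with DESeq2, 230 with limma, 58 with only the A>C and A>A sums, 22 after thinning, 44 at 3000 genes, 3 at 5000 genes, 0 with the 4 mice and 12 to 15 without an A>C mouse. Limma's 107 A>C calls became 185 (121 lower) with only the A>C and A>A groups, 0 (0 higher, 0 lower) with only the A>C groups, and 148 to 264 (38 to 143 higher, 21 to 226 lower) without a mouse. Its early calls were 0 with only the A>C groups and 13 to 21 without a mouse, its late calls 0 and 0 to 2, and its sustained calls 0 and 0 to 3, or 4 with a level of at least 1 or only the A>C and A>A groups. Its 14 calls for the difference became 23 with the 4 mice, 0 with a level of at least 1, 28 after thinning, 33 with only the A>C and A>A groups and 85 to 166 without a mouse. Causes were not tested.

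Of 51 named genes, 48 kept their sign throughout. Egr1 was at -0.10 in edgeR without mouse 13 and ran up to 1.97 without another mouse. Entpd4 was at -0.018 with limma (also at a level of at least 1 and with fewer groups), -0.43 at 5000 genes and -0.41 without mouse 14 in edgeR (up to 1.40 without mouse 12), and -0.12 and -0.15 in limma without mouse 11 or 14. Hes7 was at -0.16 and -0.17 after thinning in edgeR and limma, and -0.14 in limma without mouse 14. With 2 mice per gate, and 19 to 27 nuclei behind a mean, small differences were not detectable at this depth.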

Other observations

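Respiratory chain genes were measured as a list of 100 genes chosen by name, of which 93 entered limma's fit. Limma called none of them, 36 were lower in both FOS+ than in both FOS- mice after A>C (38.7%, against 25.0% of all genes), 8 were higher (8.6%), and the median difference was -0.70 after A>C (edgeR -0.39 on summed counts) and -0.33 after A>A. Of 24 ionotropic and metabotropic glutamate receptors, 5 were higher without overlap (20.8%, against 11.7% of all genes). Without overlap, 6 were lower (25%, the share of all genes being 25.0%), and the median difference was -0.02. Grm2, a presynaptic glutamate receptor of granule neurons, averaged 4.08 and 6.79 in FOS- and 3.15 and 2.79 in FOS+ mice, and Grin2b, an NMDA receptor subunit, 9.57 and 9.52 against 10.26 and 10.15. Postsynaptic scaffolds other than Homer1 were not called by limma, and Dlg2, a membrane-associated scaffold, averaged 9.69 and 8.92 in FOS- and 7.80 and 6.48 in FOS+ mice. Kcnj9, a G-protein-gated potassium channel subunit outside the channel list, was called lower by limma, with a mean of 2.09 in FOS- and 0.28 in FOS+ mice. This call did not hold in each fit that left out a mouse.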
